A study of Homo sapiens with 18 samples.

Results

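The regions described here are the places inside genes at which AML1-ETO was called by both of its antibodies, in control cells and again after knockdown of the microRNA miR-130a. They are the intervals of the authors' shared list that were narrower than 3000 bp, with a centre inside an annotated gene and more than 1 kb from the start or end of every gene. Of the 8731 shared intervals, 8333 were under this width, and 2406 of those (28.9%) met both conditions on position. These 2406 are called in-gene peaks below, the 5006 others within 1 kb of a gene start or end are called boundary peaks, and the 921 that lay in no gene and over 1 kb from any are called intergenic peaks. Every in-gene peak had at least 1 call in each of the 4 single-antibody lists, which is what the shared list stands for.

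The cells were Kasumi-1, a human acute myeloid leukaemia line with the t(8;21) translocation, expressing AML1-ETO with a Flag tag. Binding was mapped by CUT&RUN, in which an antibody directs a nuclease to its target and the released DNA is sequenced. The 18 libraries formed 6 groups of 3: anti-ETO, anti-Flag or mouse IgG, each in transduced control cells and in transduced cells with miR-130a knockdown, sorted as viable GFP+ cells 72 hours after transduction. The labels do not say what the control vector carried, and the same tagged line was used in every group. The deposited lists give positions only, 1 list per antibody and condition with no library named, so no depth, no peak height and no spread between libraries stands behind any value here. The IgG libraries were not used here.

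AML1-ETO joins the DNA-binding domain of RUNX1, which recognises the core sequence TGTGGT, to nearly all of ETO (RUNX1T1). The ETO part recruits corepressor complexes with histone deacetylases, and the fusion also works in a complex with E-proteins, LMO2, LDB1 and LYL1. RUNX factors are known to act both at promoters and at enhancers within introns, often next to ETS factors such as SPI1. A single gene can also hold further promoters downstream of its outermost start, and a peak inside a gene can therefore lie at a promoter.

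Of the 2303 in-gene peaks on the 23 chromosomes of the RefSeq promoter table, 302 (13.1%, 95% Wilson interval 11.8 to 14.6) had their centre within 500 bp of an annotated internal start, meaning a transcript start more than 1 kb from every gene start or end. The sequences of 6 internal promoters follow, because they show what these sites look like in genes that carry in-gene peaks: 2 ETS factors, a D-type cyclin, and 3 of the genes with the most in-gene peaks. Each is the 250 bases before the internal start, 5′ to 3′ on the strand of the gene, from RefSeq (GRCh38.p14), and each lies whole within an in-gene peak. The GSE1 start lies 825 bp from the centre of its peak and is not among the 302. Capitals mark TGTGGT or its reverse complement ACCACA.
ELF4 (chrX:130086934-130087183, minus strand): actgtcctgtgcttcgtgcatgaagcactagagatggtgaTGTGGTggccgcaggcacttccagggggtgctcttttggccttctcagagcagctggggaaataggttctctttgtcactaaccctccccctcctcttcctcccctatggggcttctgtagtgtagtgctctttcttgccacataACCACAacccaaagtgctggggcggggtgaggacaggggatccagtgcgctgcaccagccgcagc
SEPTIN9 (chr17:77319268-77319517, plus strand): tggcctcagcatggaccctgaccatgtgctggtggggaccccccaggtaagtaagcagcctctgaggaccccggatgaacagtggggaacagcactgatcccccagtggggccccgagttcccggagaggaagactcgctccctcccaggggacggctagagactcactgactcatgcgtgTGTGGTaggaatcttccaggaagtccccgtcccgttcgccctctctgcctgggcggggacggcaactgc
BCOR (chrX:40146634-40146883, minus strand): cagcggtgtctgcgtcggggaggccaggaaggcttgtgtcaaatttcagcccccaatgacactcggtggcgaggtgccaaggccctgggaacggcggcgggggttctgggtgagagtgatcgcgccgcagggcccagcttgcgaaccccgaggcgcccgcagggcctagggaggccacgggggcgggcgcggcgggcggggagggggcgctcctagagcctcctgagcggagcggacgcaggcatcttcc
CCND3 (chr6:41941809-41942058, minus strand): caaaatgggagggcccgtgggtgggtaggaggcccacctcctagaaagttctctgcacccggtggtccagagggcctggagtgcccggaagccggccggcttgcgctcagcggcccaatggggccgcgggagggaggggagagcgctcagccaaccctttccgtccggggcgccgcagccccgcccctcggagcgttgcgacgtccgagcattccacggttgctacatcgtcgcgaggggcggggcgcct
ELF2 (chr4:139084225-139084474, minus strand): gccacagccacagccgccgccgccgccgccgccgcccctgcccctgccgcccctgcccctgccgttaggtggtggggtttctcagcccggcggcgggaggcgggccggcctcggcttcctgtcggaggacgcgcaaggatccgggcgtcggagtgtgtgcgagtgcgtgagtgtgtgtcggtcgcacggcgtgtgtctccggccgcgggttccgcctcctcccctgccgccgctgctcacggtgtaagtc
GSE1 (chr16:85613072-85613321, plus strand): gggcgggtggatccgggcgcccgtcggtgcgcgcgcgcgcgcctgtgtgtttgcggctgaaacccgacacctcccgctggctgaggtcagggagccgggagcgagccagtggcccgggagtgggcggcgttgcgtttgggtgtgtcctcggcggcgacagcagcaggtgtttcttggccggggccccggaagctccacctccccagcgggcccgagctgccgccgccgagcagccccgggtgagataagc

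The 6 stretches differed in base composition and in the RUNX core. The ELF4 stretch held 2 matches and had 57.6% G and C with 5 CpG dinucleotides. The SEPTIN9 stretch held 1 match, with 64.0% G and C and 11 CpG. BCOR, CCND3, ELF2 and GSE1 had no match in these bases, between 71.2% and 75.2% G and C, and between 25 and 34 CpG. No match says only that these letters are not in this window. Among other internal promoters inside peaks of these genes, a further one in CCND3 (61.2% G and C, 3 CpG) and 2 in SEPTIN9 (81.2% and 58.4%, 30 and 4 CpG) also had no match, so stretches with no match were both CpG-rich and CpG-poor.

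Over all internal promoters, those inside an in-gene peak had a higher median G and C content than the others. The 308 internal promoters that lay whole inside an in-gene peak had a median of 68.4% G and C and 22 CpG in 250 bases, against 52.4% and 5 for the 4984 other internal promoters and 58.0% and 11 for all 34943 promoters of the table. TGTGGT on either strand was found in 12.3% of them, in 11.9% of the other internal promoters and in 10.99% of all promoters, so its share was near the background. For AGGAAG, an ETS core, the shares were 31.5%, 30.7% and 28.7%, and for the E-boxes CAGCTG or CAGGTG 28.6%, 29.6% and 28.7%. The AT-rich GATA core AGATAA was found in 2.92% of them, 11.7% of the other internal promoters and 9.19% of all promoters, and the AP-1 site TGANTCA in 3.57%, 8.55% and 6.59%. Base composition moved with these last 2 shares, and its part in them was not tested. The sequence of the in-gene peaks away from annotated starts was not read here.

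Internal promoters marked peaks present in both conditions more often than peaks of the knockdown alone. With the same width and position rules, 102 of 880 control-unique peaks (11.6%, 9.64 to 13.9) and 66 of 2063 knockdown-unique peaks (3.20%, 2.52 to 4.05) lay within 500 bp of an internal start. The share was 9.91 percentage points higher for the in-gene shared peaks than for the knockdown-unique ones (95% interval 8.35 to 11.5, two-sided Fisher's exact test over peaks, Benjamini-Hochberg adjusted p = 3.5e-34). It was 1.52 points higher than for control-unique peaks (-1.11 to 3.95, Fisher's exact test, adjusted p = 0.259), a difference that did not pass the threshold of 0.05 and turned to -0.10 points when 250 bp was used in place of 500. In the wider 50% of each list it was 4.96 points and passed (Fisher's exact test, adjusted p = 0.00942). This comparison was chosen after the data were seen. Peaks are not replicates of a condition, so every Fisher test here compares lists of regions, and none of them measures the spread between libraries.

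In-gene peaks were spread over many genes, most with a single peak. Protein-coding genes hosted 2168 of the 2406 peaks (90.1%), and 168 peaks lay in more than 1 annotated gene, in which case the shortest coding gene was taken as host. Of 20037 protein-coding genes, 1515 (7.56%) held an in-gene peak. Among these hosts 1109 had 1 peak, 271 had 2, 85 had 3 and 50 had 4 or more. Those 50 genes together held 262 peaks, 12.1% of the peaks in coding genes. Of the 2406 peaks, 828 (34.4%) had another in-gene peak within 10 kb, and the median distance to the next one was 26357 bp. The same was not computed for the other shared peaks, so closeness is not read as particular to in-gene peaks.

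Among the genes with the most in-gene peaks were SEPTIN9 and GSE1 with 13 each, then BCOR and GNG7 with 10, SLC38A10, PLEC and MARK2 with 8, and PRKCZ and RASA3 with 6. A pair of them encode proteins of chromatin repression: BCOR is the BCL6 corepressor, and GSE1 is a partner of the histone demethylase LSD1. Others encode cell structure and signalling proteins: SEPTIN9 a filament-forming GTPase, PLEC the cytolinker plectin, GNG7 a G-protein subunit, MARK2 and PRKCZ kinases, RASA3 a GTPase-activating protein for RAS and SLC38A10 a solute carrier. Per 100 kb of gene, and among genes with at least 3 in-gene peaks, SIGIRR led with 42.8, followed by TMC8 (24.6), MAMSTR (21.4), MNT (17.7) and GRK6 (17.3). SIGIRR, an inhibitory receptor of the interleukin-1 receptor family, held 5 peaks in a gene of 11682 bp. MNT encodes a repressor that pairs with MAX, and GRK6 a kinase of G-protein-coupled receptors.

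The chains with the most peaks, with gaps between centres of at most 10 kb, lay in single genes or neighbouring pairs. GSE1 held 8 in-gene peaks within chr16:85552606-85573398, a stretch of 20793 bp. SIGIRR and its neighbour PKP3 held 7 within chr11:396152-417144. PRKCZ held 6 within chr1:2119924-2146854, and MARK2 held 5 within chr11:63866418-63873701, a stretch of only 7284 bp. In GSE1, a gene of 506689 bp, 12 of the 13 peaks lay 366722 bp or more from the start, while in SEPTIN9, of 219098 bp, they were spread from 38048 to 184448 bp, as the plot of peaks along host genes shows.

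**Figure D1:**
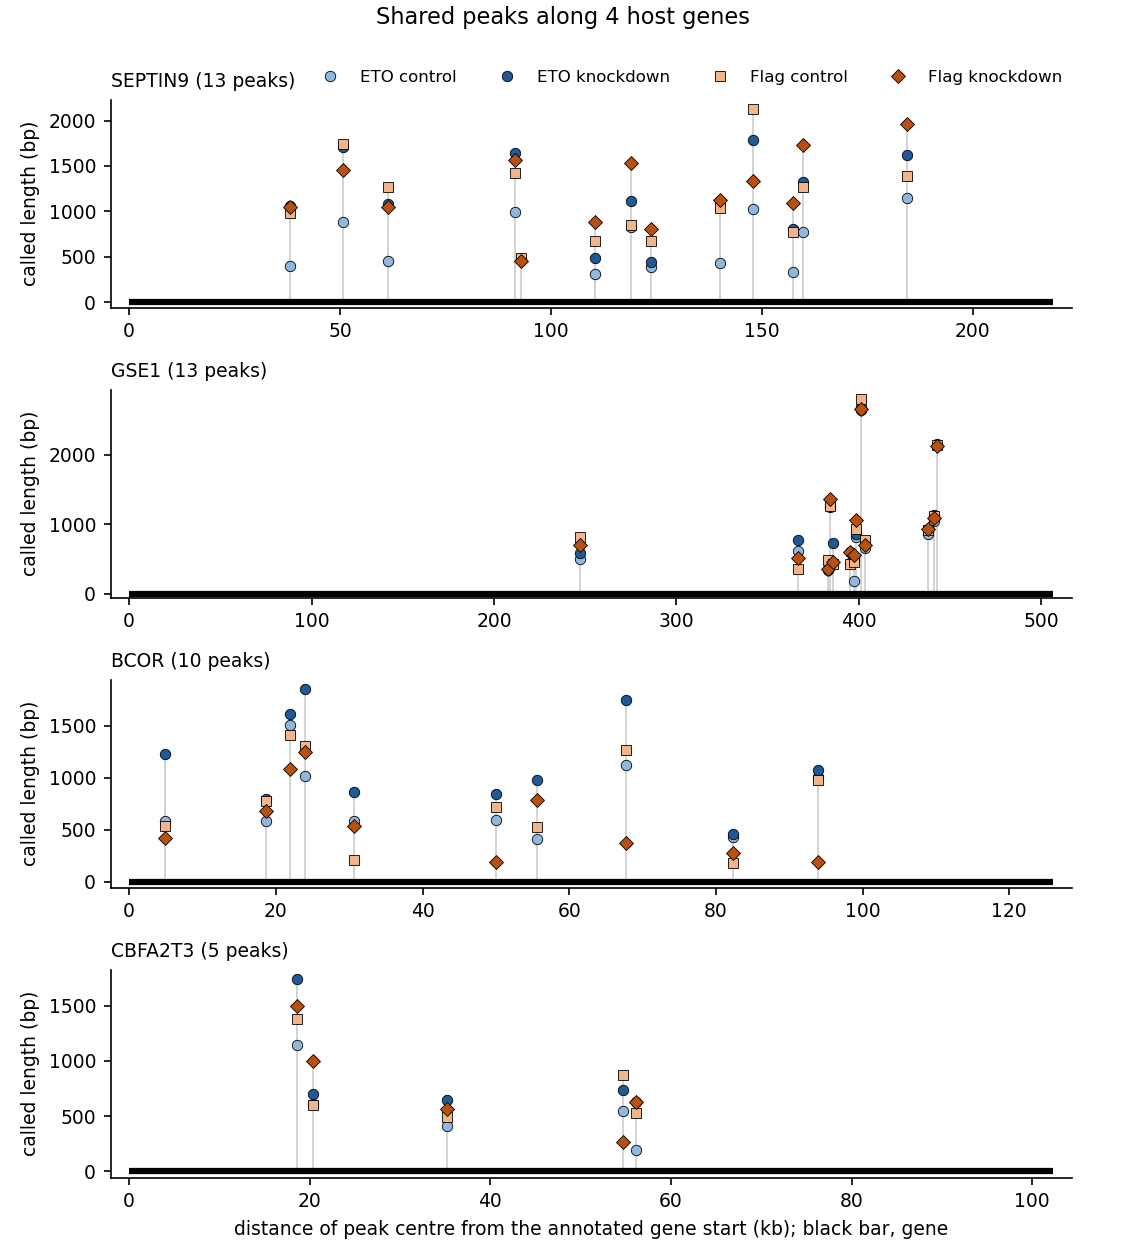
In-gene peaks along SEPTIN9, GSE1, BCOR and CBFA2T3. The x axis is the distance of the peak centre from the annotated gene start in kb, the black bar is the gene, and each peak has 4 points on a grey line for its called length in bp by anti-ETO or anti-Flag in control or knockdown. All 13 SEPTIN9 peaks had longer anti-ETO calls in knockdown than in control, and GSE1 peaks did at 10 of 13.

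Genes chosen for their known roles with AML1-ETO or in myeloid cells were then examined in 12 lists. Of the 115 distinct genes, 32 held an in-gene peak, 65 peaks in all, against 7.56% of all protein-coding genes. The share also moved with gene length, from 1.03% of coding genes up to 5 kb to 11.1% of those of 100 to 200 kb, and the part of gene length in the lists' counts was not tested. The lists were chosen from knowledge of this fusion and with earlier results of these data known, so their counts are a description. A listed gene without an in-gene peak could still hold a shared peak near a gene boundary, or one of 3000 bp or more.

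Of the 7 RUNX and ETO family genes, RUNX1 and CBFA2T3 held in-gene peaks, and RUNX1T1, RUNX2, RUNX3, CBFB and CBFA2T2 held none. Shared peaks outside the in-gene class still had their centre in RUNX2 (3), RUNX3 (2), CBFB (1) and CBFA2T2 (1). RUNX1T1 had 0 shared peaks of any class. RUNX1, which gives the fusion its DNA-binding domain, had 4 in-gene peaks. The widest, chr21:35045182-35047441, lay 2990 bp from the annotated start of the gene, with called lengths of 1450 bp (control ETO), 1937 bp (knockdown ETO), 1306 bp (control Flag) and 1635 bp (knockdown Flag). The other 3 RUNX1 peaks formed a group near the middle of the gene, at chr21:34907388-34908424, chr21:34908631-34909057 and chr21:34911226-34911904. In this group the Flag calls were shorter in knockdown than in control at every peak (996 and 859 bp, 354 and 182 bp, 679 and 440 bp), whereas the ETO calls were shorter at the first (788 and 689 bp) and longer at the second (215 and 398 bp). CBFA2T3, also called ETO2, encodes a corepressor of the same family as ETO and had 5 in-gene peaks. Their ETO calls were longer in knockdown at all 5, from 1.16 to 3.31 times the control length, and the Flag calls were longer at 4 of 5.

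Among 12 partner transcription factors, LMO2, LYL1, LDB1 and TCF3 held in-gene peaks and TCF4, TCF12, ERG, FLI1, GATA2, TAL1, HHEX and MEIS1 did not. HHEX held 1 shared peak of 3000 bp or more. LMO2 and LDB1 are the bridging subunits of the complex, and LYL1 and TCF3 are its basic helix-loop-helix factors. The LMO2 peak at chr11:33870027-33871102 was called over 1044 bp by ETO in control, 1074 bp by ETO in knockdown, 1071 bp by Flag in control and 613 bp by Flag in knockdown, so the 2 conditions differed mainly in Flag. The larger LYL1 peak, chr19:13099600-13101214, had 4 calls between 1371 and 1501 bp, and the LDB1 peak, chr10:102117071-102118390, had 4 between 1126 and 1288 bp. An ETO call at least 1.5 times as long in knockdown as in control was found at 0 of the 5 peaks in this list, against 33.2% of all 8333 shared peaks under 3000 bp.

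Among corepressor genes, SIN3A, the scaffold of a histone deacetylase complex, held 1 in-gene peak at chr15:75450143-75451181, 5153 bp from its start. Its calls were 1018 bp (control ETO), 1002 bp (knockdown ETO), 932 bp (control Flag) and 683 bp (knockdown Flag), so the ETO calls were nearly equal and the Flag call was shorter in knockdown.

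Of 9 ETS factor genes, SPI1, ETV6, ELF2 and ELF4 held in-gene peaks. SPI1 (PU.1), a master regulator of myeloid cells, had 2. At chr11:47359000-47360356 ETO covered 618 bp in control and 1320 bp in knockdown, and Flag 700 and 499 bp. At chr11:47373865-47374476 both antibodies gave longer calls in knockdown, 179 and 409 bp by ETO and 384 and 556 bp by Flag. In ETV6, a repressor gene often rearranged in leukaemia, both antibodies had shorter calls in knockdown at chr12:11719303-11720425, with 448 and 176 bp by ETO and 1123 and 186 bp by Flag. At its other peak, chr12:11765458-11766622, only Flag did, with 575 and 728 bp by ETO and 989 and 312 bp by Flag. Thus peaks in genes of the same family differed in direction.

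GFI1, KLF1, IKZF1 and IRF8 each held 1 in-gene peak among the 14 other differentiation regulators. The peak in GFI1, a repressor needed for neutrophil formation, lay at chr1:92476169-92477191. Its calls were 184 bp (control ETO), 1023 bp (knockdown ETO), 302 bp (control Flag) and 411 bp (knockdown Flag), an ETO ratio of 5.56, the highest of the listed genes. This ratio rests on a control call as short as those under the narrowest in-gene peaks (173 to 194 bp). IRF8, a monocyte factor, had ETO calls of 461 and 482 bp and Flag calls of 994 and 435 bp at chr16:85913564-85914557. The 5 CEBP genes held none. Their median length was 2108 bp, and the longest, CEBPG, had 8978 bp. By the 1 kb rule CEBPD (1252 bp) and CEBPE (1950 bp) were too short to hold one. So were JUNB (1830 bp), CD14 (1970 bp) and CAMP (1991 bp), which the shares of their lists count as genes without one. CEBPA and CEBPG had a shared peak within 1 kb of their start, while CEBPB and CEBPE did not. For CEBPD no strand was used.

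Growth factor receptor genes with in-gene peaks were KIT, CSF1R and EPOR, 3 of 9. The KIT peak at chr4:54687223-54689267 lay 30288 bp from the start of this stem cell factor receptor gene and had calls of 1575 bp (control ETO), 1781 bp (knockdown ETO), 2045 bp (control Flag) and 1507 bp (knockdown Flag). In CSF1R, the receptor for macrophage colony-stimulating factor, chr5:150081528-150083051 had ETO calls of 1099 and 927 bp and Flag calls of 1233 and 318 bp. All 4 peaks of this list had shorter Flag calls in knockdown, with a median ratio of 0.67, as did 1624 of all 2406 in-gene peaks, where the median was 0.90. Longer ETO calls were found at 2 of 4, one of them in EPOR by a single base (759 and 760 bp), against 1985 of 2406. Among granule protein genes only PRTN3 (proteinase 3) of 8 held one, and among 10 surface and adhesion genes only SPN (CD43).

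Proximal signalling genes, which encode adaptors and enzymes next to immune receptors, had the largest share of any list: 7 of 10 held 16 in-gene peaks. They were LAT2, UBASH3A, UBASH3B, LCP2, VAV1, PTPN6 and PLCG2, with 0 in SYK, LYN and BLNK. Flag calls were at most 1/1.5 of the control length in knockdown at 8 of the 16 peaks, against 28.2% of all 8333 shared peaks under 3000 bp, and ETO calls at least 1.5 times as long at 7, against 33.2%. UBASH3B, a phosphatase that dampens tyrosine kinase signals, had the sharpest Flag difference of the list at chr11:122716624-122718185, with 1562 and 426 bp by Flag and 1083 and 1099 bp by ETO. UBASH3A, its relative in T cells, had 1061 and 449 bp by Flag and 894 and 870 bp by ETO at chr21:42424714-42425774. LCP2 encodes the adaptor SLP-76, and at chr5:170277185-170278237 it had 311 and 982 bp by ETO and 1043 and 776 bp by Flag. In the adaptor gene LAT2, chr7:74216838-74218965 had calls of 1665 and 1828 bp by ETO and 2068 and 1313 bp by Flag, while its other peak, chr7:74226246-74227307, had 494 and 1062 bp by ETO and 487 and 576 bp by Flag. The members of this list thus did not share the direction of the Flag difference. Their presence in both conditions follows from the rule that chose the peaks.

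Cell cycle genes with in-gene peaks were CCND1, CCND3 and CDK6, 3 of 9. CCND3, a D-type cyclin, held 4, and 3 of them had their centre within 500 bp of an internal start. The widest, chr6:41937347-41940248, had calls of 1760 and 2588 bp by ETO and 2865 and 2686 bp by Flag, and the next, chr6:41940796-41942260, had 712 and 1310 bp by ETO and 1431 and 918 bp by Flag. Among 15 genes mutated alongside t(8;21), KIT and ZBTB7A held in-gene peaks. ZBTB7A, a zinc finger repressor, had 326 and 1602 bp by ETO and 777 and 416 bp by Flag at chr19:4051773-4053374. As a comparison of another kind, 10 very long neuronal genes, such as CNTNAP2 and LRP1B, held 0 in-gene peaks.

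**Figure D2:**
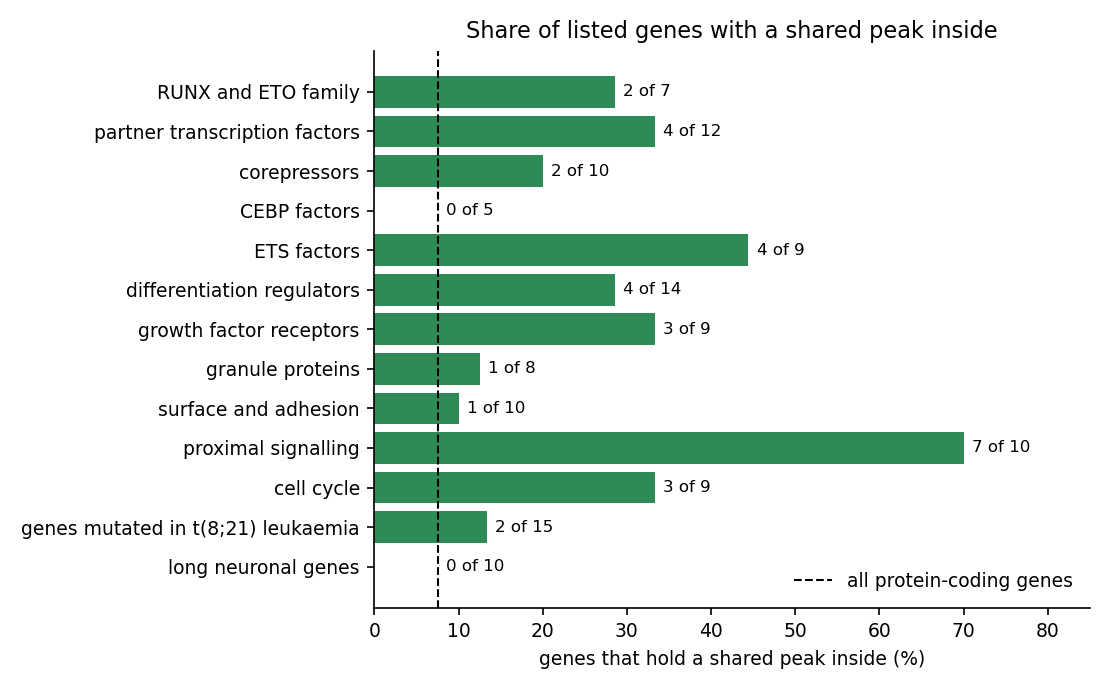
Share of the genes of each list that hold an in-gene peak, in percent, with the number of genes beside each bar and a dashed line at the 7.56% of all protein-coding genes. Proximal signalling genes had the highest share (7 of 10), and the CEBP and long neuronal genes had 0. The CEBP genes CEBPD and CEBPE, and JUNB, CD14 and CAMP in other lists, were too short to hold an in-gene peak.

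Within their host genes the peaks lay toward the start. Strand was known for the hosts of 1787 of the 2168 peaks in coding genes. Of these peaks, 1100 (61.6%, 59.3 to 63.8) were nearer the start of the host than its end. The median distance was 12662 bp from the start and 24937 bp from the end. The asymmetry was strongest close to the boundaries: 234 peaks lay 1 to 2 kb from the host's start and 55 lay 1 to 2 kb from its end. In 10 equal bins of gene length the counts went from 317 peaks in the first bin to 87 in the last, and the rule left out 1 kb at each end alike.

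Short genes were more densely occupied than long ones. Leaving out 1 kb at each end, in-gene peaks numbered 12.5 per Mb in coding genes up to 5 kb, 8.28 in genes of 5 to 20 kb, 4.26 in genes of 20 to 50 kb, 2.33 in genes of 50 to 100 kb and 0.37 in genes over 200 kb. The share of genes with a peak was lowest in the shortest class, at 1.03% up to 5 kb, and went from 6.68% at 5 to 20 kb to 11.1% at 100 to 200 kb and 9.29% above 200 kb.

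**Figure D3:**
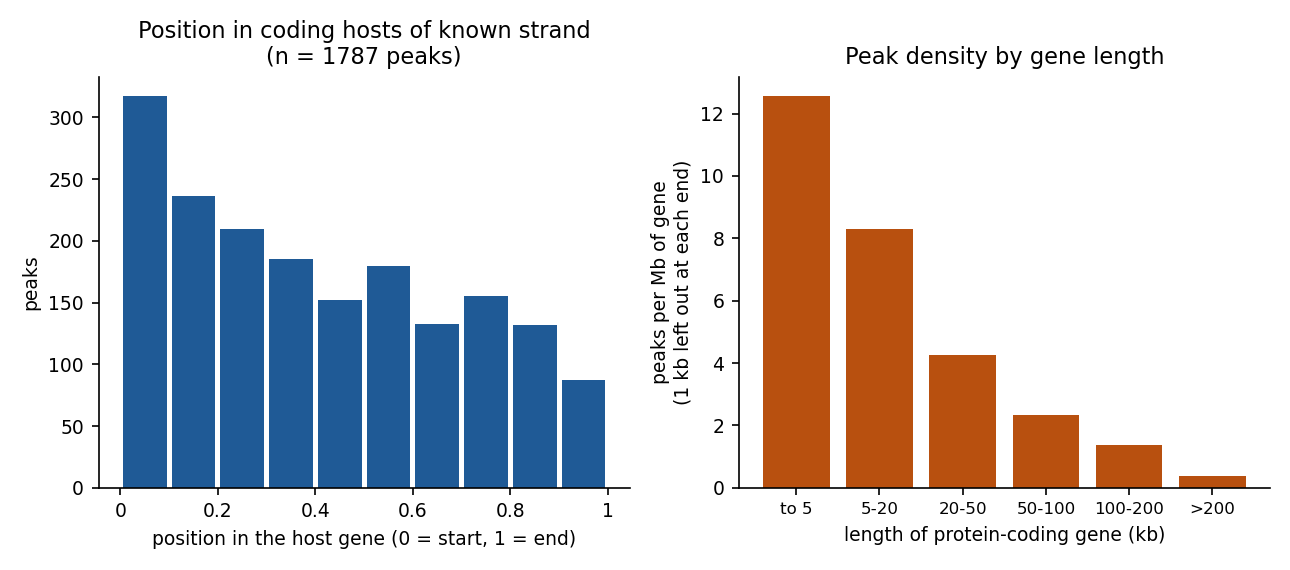
Left, number of in-gene peaks by position in the host gene, from 0 at the start to 1 at the end, for 1787 peaks. Right, in-gene peaks per Mb of protein-coding gene by gene length in kb. Counts fell from 317 in the first of 10 bins to 87 in the last, and density was lowest in genes over 200 kb.

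Hosts of in-gene peaks were also occupied elsewhere. Of the 1260 hosts with known strand, 573 (45.5%) also had a shared peak within 1 kb of their annotated start, against 3137 of 14583 other coding genes (21.5%). Near the annotated end the shares were 7.06% and 2.61%. Knockdown-unique peaks lay in 598 of the 1515 hosts (39.5%) and in 1336 of 18522 other coding genes (7.21%), and control-unique peaks in 17.8% and 7.55%. Hosts were longer, with a median of 40886 bp against 23065 bp. Among genes of 20 to 50 kb alone the shares were 46.1% and 8.54% for knockdown-unique peaks, 14.7% and 8.17% for control-unique peaks and 52.3% and 24.0% for a shared peak at the start. SEPTIN9 held 17 knockdown-unique and 0 control-unique peaks beside its 13 in-gene peaks, GSE1 15 and 3, and BCOR 1 and 1. The hosts with the most peaks therefore differed in how many further peaks were called in only 1 condition.

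The 4 lists called different lengths under the same peak. Called length here is the summed width of all calls of a list that touch the peak. The median over in-gene peaks was 553 bp for ETO in control (quartiles 393 and 883) and 824 bp for ETO in knockdown (547 and 1228). For Flag it was 781 bp in control (490 and 1174) and 623 bp in knockdown (395 and 1046). ETO calls were thus longer in knockdown and Flag calls shorter, and the order of the antibodies was opposite in the 2 conditions. The merged interval had a median width of 990 bp, with quartiles of 669 and 1435 bp.

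**Figure D4:**
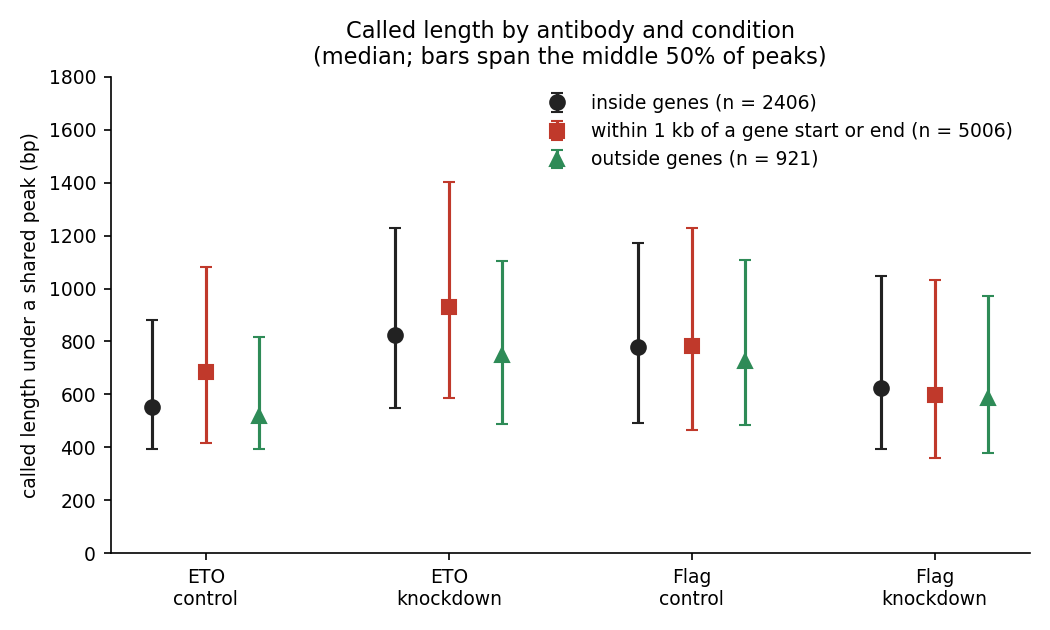
Called length in bp under in-gene, boundary and intergenic shared peaks, for each antibody and condition. Points are medians over peaks and bars run from the lower to the upper quartile. In control the ETO median was 553 bp under in-gene and 686 bp under boundary peaks, while the Flag medians were 781 and 784 bp.

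Peak by peak, ETO calls were longer in knockdown at 1985 of 2406 in-gene peaks (82.5%) and Flag calls shorter at 1624. At 1264 peaks (52.5%) ETO was longer and Flag shorter, at 716 (29.8%) both were longer, at 343 (14.3%) both were shorter, and at 57 (2.37%) ETO was shorter and Flag longer. Among all 8333 shared peaks these 4 shares were 53.6%, 26.8%, 15.7% and 2.58%, close to those of the in-gene peaks. The shared list was made from the same control and knockdown calls, so these counts are a description with no test. The deposited lists also differed as a whole, with 14264 and 22594 calls by ETO and 23162 and 25961 by Flag in control and knockdown. The part of list size in these differences was not tested.

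**Figure D5:**
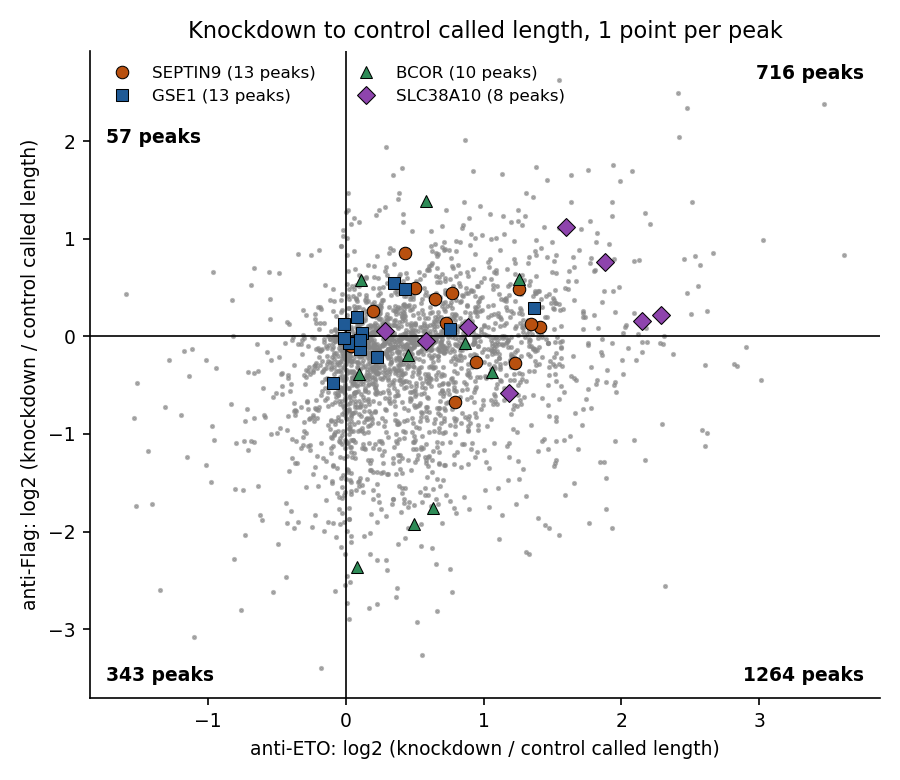
Log2 ratio of knockdown to control called length for anti-ETO (x axis) and anti-Flag (y axis), 1 point per in-gene peak, with the peaks of SEPTIN9, GSE1, BCOR and SLC38A10 marked. The number of peaks is printed in each quadrant, and the largest quadrant, with longer ETO and shorter Flag calls, held 1264 peaks.

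Genes with many peaks differed in this respect. In SLC38A10 all 8 peaks had longer ETO calls in knockdown, at a median of 2.65 times the control length, with Flag at a median of 1.09 times. SEPTIN9 had longer ETO calls at 13 of 13 peaks (median 1.70) and a Flag median of 1.10. BCOR had longer ETO calls at 10 of 10 (median 1.45) but shorter Flag calls at 7 of 10, including chrX:40082777-40083846, where Flag covered 977 bp in control and 190 bp in knockdown. GSE1 had medians of 1.08 for ETO and 1.02 for Flag, and at its peak chr16:85611418-85613575 all 4 calls lay between 2122 and 2158 bp. Of the 50 hosts with 4 or more in-gene peaks, 30 had longer ETO calls at every peak, 3 had shorter Flag calls at every peak and 3 had longer Flag calls at every peak. Since 82.5% of all in-gene peaks had longer ETO calls, nothing particular to these hosts is read from that count. The size of the ETO ratio varied within hosts, with a median of 2.60 for the largest ratio over the smallest.

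Compared with boundary peaks, in-gene peaks more often had an ETO call that was much longer in knockdown. The ETO call was at least 1.5 times as long at 921 in-gene peaks (38.3%), against 30.7% of boundary peaks and 33.3% of intergenic peaks (33.2% of all shared peaks under 3000 bp). The difference was 7.54 percentage points from boundary peaks (95% interval 5.22 to 9.87, Fisher's exact test, adjusted p = 1.2e-09) and 4.95 points from intergenic peaks (1.29 to 8.50, Fisher's exact test, adjusted p = 0.019). Among the narrower 50% of shared peaks the first difference was 3.62 points (Fisher's exact test, adjusted p = 0.196) and the second 3.26 points (Fisher's exact test, adjusted p = 0.667). The second also missed the threshold in the wider 50% (5.47 points, Fisher's exact test, adjusted p = 0.133) and with a factor of 2 (3.40 points, Fisher's exact test, adjusted p = 0.094). ETO calls shorter by the same factor were rare, at 50 in-gene peaks (2.08%, against 1.87% of all shared peaks), and differed by 0.30 points from boundary peaks (-0.34 to 1.03, Fisher's exact test, adjusted p = 0.483).

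Large differences in the Flag call also differed by position. A Flag call at most 1/1.5 as long in knockdown was found at 624 in-gene peaks (25.9%, against 28.2% of all shared peaks), a difference of -3.41 points from boundary peaks (-5.55 to -1.23, Fisher's exact test, adjusted p = 0.0089) and -2.08 points from intergenic peaks (-5.52 to 1.25, Fisher's exact test, adjusted p = 0.378). A Flag call at least 1.5 times as long was found at 193 (8.02%, against 7.02% of all shared peaks), which was 1.65 points above boundary peaks (0.41 to 2.97, Fisher's exact test, adjusted p = 0.019) and 0.10 points above intergenic ones (-2.08 to 2.05, Fisher's exact test, adjusted p = 1). Both differences from boundary peaks missed the threshold with a factor of 2, at -1.41 and 0.27 points, and the second also without chromosomes 17 and 19, at 1.19 points (Fisher's exact test, adjusted p = 0.182).

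The largest of the differences tested against boundary peaks was in the order of the antibodies. In control, the Flag call was longer than the ETO call at 1869 in-gene peaks (77.7%) and at 63.5% of boundary peaks, a difference of 14.2 points (12 to 16.3, Fisher's exact test, adjusted p = 5.5e-35). In knockdown it was longer at 613 in-gene peaks (25.5%) and at 14.0% of boundary peaks, a difference of 11.5 points (9.49 to 13.5, Fisher's exact test, adjusted p = 7e-32). Against intergenic peaks, at 79.8% and 27.9%, the differences were -2.12 points (-5.12 to 1.04) and -2.43 points (-5.86 to 0.89), with an adjusted p of 0.189 for both (Fisher's exact test). In all 10 alternatives run for each, both differences from boundary peaks kept their direction and passed the threshold. These tests were added after the data were seen. The call that was longest of the 4 was the knockdown ETO call at 42.9% of in-gene and 54.5% of boundary peaks, and the control Flag call at 33.3% and 24.3%. At intergenic peaks these shares were 36.8% and 38.3%, and over all shared peaks under 3000 bp 49.2% and 28.4%.

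In-gene peaks were less often broken into several calls than boundary peaks. At least 1 of the 4 lists had 2 or more separate calls at 735 in-gene peaks (30.5%, against 34.7% of all shared peaks), 38.3% of boundary peaks and 26.2% of intergenic peaks. The difference was -7.75 points from boundary peaks (-10.0 to -5.45, Fisher's exact test, adjusted p = 1.1e-10) and 4.38 points from intergenic peaks (0.94 to 7.70, Fisher's exact test, adjusted p = 0.0136). The second did not pass the threshold in 4 of 9 alternatives by Fisher's exact test: without peaks at internal starts (2.3 points, adjusted p = 0.201), with protein-coding genes only (1.84, adjusted p = 0.22), in the wider 50% of peaks (4.33, adjusted p = 0.142) and in the narrower 50%, where its sign turned (-0.83, adjusted p = 0.56). Broken calls were most frequent for Flag in knockdown, at 478 in-gene peaks (19.9%), then Flag in control (13.3%), ETO in knockdown (7.90%) and ETO in control (7.32%). Over all shared peaks under 3000 bp the shares were 23.5%, 17.4%, 7.96% and 7.85%, so this order was not particular to in-gene peaks.

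Peaks at internal starts were compared with the other in-gene peaks in the same way, and no difference passed the threshold after adjustment. Their merged width had a median of 1123 bp, against 976 bp. The ETO call was at least 1.5 times as long in knockdown at 38.7% of the 302 peaks at internal starts and at 38.3% of the 2001 others, a difference of 0.41 points (-5.33 to 6.40, Fisher's exact test, adjusted p = 0.899). For Flag calls at most 1/1.5 as long, the shares were 30.8% and 25.3%, a difference of 5.51 points (0.20 to 11.2, Fisher's exact test, p = 0.0486, adjusted p = 0.194).

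Single peaks reached larger ratios. Most of these rested on a short call in 1 condition, close in length to the calls under the narrowest in-gene peaks (173 to 194 bp). The largest ETO ratio was 12.2, at chr17:75047494-75050180 in KCTD2, where ETO covered 181 bp in control and 2214 bp in knockdown and Flag covered 1354 and 2418 bp. Next was chr19:2083604-2086206 in MOB3A, with 199 and 2198 bp by ETO and 407 and 2114 bp by Flag, so both antibodies had only short calls in control. The third was in PLEC, with 176 and 1432 bp by ETO. The smallest ETO ratios were 0.33 in LOC107985449, 0.35 in BCRP7 and 0.35 in TXNRD1, a thioredoxin reductase gene, where ETO covered 559 bp in control and 195 bp in knockdown. For Flag the largest ratios were 6.16 at another KCTD2 peak, 5.63 in GNG7 and 5.19 at the same MOB3A peak. The smallest Flag ratio was 0.095 at chr5:151080448-151082582 in TNIP1, an inhibitor of NF-kB signalling, where Flag covered 2135 bp in control and 202 bp in knockdown while ETO covered 1810 and 1597 bp. PVT1 (0.10) and LINC00299 (0.12), both long non-coding RNA genes, followed. At these Flag minima the peak was thus retained by a short call.

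At the edges of the rule, the widest in-gene peaks lay in MBD6 (2982 bp), NTSR1 (2974 bp) and TK2 (2967 bp), and the narrowest of the 107 left out by width lay in NSD2 (3000 bp), PHF19 (3002 bp) and RUBCN (3009 bp). ETO ratios were 1.24, 1.62 and 1.06 in the first 3 genes and in the others 2.03, 1.71 and 1.49. The in-gene peaks nearest a boundary lay in RABAC1 (1003 bp away) and ALDH3B1 (1004 bp), and the nearest peaks on the other side lay 1000, 998 and 997 bp from one. The narrowest in-gene peaks were 189 bp in NRBP2, 192 bp in SCNN1A and 194 bp in NIBAN2, where all called lengths lay between 173 and 194 bp.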

How the data were processed

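The 9 deposited files are peak lists, as interval positions with no score, p-value or read count. Per the submitters' processing notes, fastp 0.19.5, Bowtie2 2.3.5, MACS2 2.2.5 and HOMER 4.8 were used with hg38 and sacCer3. The threshold, the handling of replicates and the use of IgG are not given in the sources used here. A deeper library or a looser threshold lengthens calls and lists, so called lengths are comparable only as far as the authors' calling was.

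Positions were compared with 59679 RefSeq genes of GRCh38.p14, the assembly of hg38. The gene table holds outer bounds only, so exons and introns were not told apart. Promoter sequences, strands and internal starts came from RefSeq promoters on 23 chromosomes. The other 103 in-gene peaks lay on a chromosome not in that table. A call was counted under a shared peak with an overlap of at least 1 bp. Shares carry 95% Wilson intervals and differences Newcombe intervals. These cover counting error only. Intervals and tests take peaks as independent. However, 34.4% of in-gene peaks had another within 10 kb, and 48.8% of those in coding genes shared their host with another. Intervals may therefore be too narrow and p-values too small. Two-sided Fisher's exact tests were adjusted by Benjamini-Hochberg within families of 8 (called lengths), 2 (split calls), 4 (antibody order), 4 (peaks at internal starts against others) and 2 (internal starts by list). Tests used scipy 1.17.1 and statsmodels 0.14.6 in Python 3.11.15, tables pandas 2.3.3 and numpy 2.4.6, and the functions were checked on 900 simulated intervals, with all 7 checks met.

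The in-gene peaks and gene lists were chosen with earlier results of these data known. Named genes are the 10 with the most in-gene peaks, the 5 with the most per 100 kb among those with at least 3, listed genes with in-gene peaks, the 3 widest and narrowest peaks, and the 3 largest and smallest ratios per antibody. A gene named by this rule is not reported here. The planned motif search in peak windows was not run, since genome sequence was not used here, and RefSeq promoters were searched instead. Alternatives were other overlap, boundary, width, fold and gene rules.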

Additional observations from a re-analysis of the deposited data

How the results depend on the processing

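No paired analysis was possible because the lists name no replicate. Of 161 alternative values for 17 results, 133 counted as unchanged. For a difference this meant that it kept its direction and its side of the threshold. For the number of genes holding in-gene peaks, which was not tested, it meant a change by a factor of at most 1.5. Both antibody-order differences from boundary peaks, the boundary difference in split calls and the internal-start difference from knockdown-unique peaks were unchanged in every alternative run. Values below are percentage points, in-gene minus the other class, and the cause of each change was not tested. All miss the threshold of 0.05 except the 2 said to pass.

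The wider 50% of shared peaks left 848 genes holding in-gene peaks in place of 1515, with fewer peaks counted, and gave 5.47 for longer ETO, -0.36 for longer Flag, 4.33 for split calls and 0.73 for Flag over ETO in control, all against intergenic peaks. The narrower 50% (added after the data were seen) gave 3.62 and 3.26 for longer ETO, 0.95 for longer Flag and -1.58 for shorter Flag against boundary peaks, and -0.83 for split calls and -5.71 for Flag over ETO in control, which passed, against intergenic ones. A factor of 2 gave 3.40 for longer ETO, -0.022 for longer Flag and 1.25 for shorter Flag against intergenic peaks, and 0.27 and -1.41 for longer and shorter Flag against boundary peaks. With protein-coding genes only, intergenic differences were -0.36 for shorter ETO, 1.84 for split calls and 0.76 for Flag over ETO in knockdown. Without chromosomes 17 and 19, shorter ETO was -0.10 against intergenic and longer Flag 1.19 against boundary peaks. Longer Flag against intergenic peaks was -0.065 at a 500-bp boundary, -0.077 with no width limit and -0.12 by covered bases, and shorter Flag against boundary peaks -1.53 at the widest boundary distance tried. Without peaks at internal starts split calls were 2.3 against intergenic peaks. Internal starts against control-unique peaks gave -0.10 within 250 bp and 4.96, which passed, for the wider 50% of each list.

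The lists give no depth, so no call has a precision of its own.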

Other observations

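In-gene peaks outside coding genes lay mainly in long non-coding RNA genes, with 204 peaks in 175 hosts. NEAT1, the scaffold RNA of nuclear paraspeckles, held 3 in a gene of 22743 bp, and LOC105371912 also held 3. CEACAM16-AS1, FMNL1-DT and LNCEGFL7OS held 2 each. Their peaks had a median width of 869 bp, against 1001 bp in coding genes. The ETO call was at least 1.5 times as long in knockdown at 34.8% of peaks in long non-coding RNA genes and 38.7% of those in coding genes, a difference that was not tested. The immunoglobulin heavy chain locus IGH held 3 in-gene peaks.

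Chromosome 19 held 324 in-gene peaks (13.5%), 10.2 per Mb of coding gene, against 0.69 on chromosome 2 and 0.60 on X. In-gene peaks were 33.6% of the shared peaks under 3000 bp on chromosome 19, and 23.1% on chromosome 2 and on X. Over all chromosomes they were 28.9%. Whether the density on chromosome 19 was particular to in-gene peaks was not tested. On chromosome 11 the ETO call was at least 1.5 times as long in knockdown at 50% of 170 peaks, and on chromosome 7 at 25.4% of 71. For Flag calls at most 1/1.5 as long the shares ran from 18.2% on chromosome 11 to 43.8% of 16 peaks on chromosome 18. Chromosomes 17 and 19 together had 42.8% for ETO and 19.9% for Flag, against 36.9% and 27.7% on all others.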
